A study of Rattus norvegicus with 18 samples.

Results

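Progesterone is made from cholesterol inside the ovarian follicle and is broken down there as well. The levels of 9 genes of these steps were examined around ovulation in the rat: Scarb1, Star, Cyp11a1, Fdx1, Fdxr, Hsd3b1, Por, Akr1c18 and Srd5a1. A probe set of the array was taken as a member when the platform's annotation gave it a single gene symbol and that symbol was one of the 9. This rule found 11 probe sets of 7 genes, out of 18155 probe sets and 10391 genes tested on the arrays, and all 11 passed the filter on low values. Akr1c18 appears in the annotation as Akr1c3 and is called Akr1c3 here. Fdxr and Srd5a1 were named by no single-symbol probe set and were not analysed here. The sequence accession behind the Hsd3b1 probe set is listed in RefSeq under Hsd3b2, with Hsd3b1 as a synonym, so which member of that gene family it measured is uncertain.

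The samples were whole follicles cut by laser microdissection from frozen ovary sections 8 micrometres thick, taken from Crl:CD(SD) rats whose age the labels do not state. Each of 6 groups held 3 samples, each hybridised to its own Affymetrix array. Untreated rats supplied control PeF, the peri-ovulatory follicles of proestrus at hour 22, and control PoF, the post-ovulatory follicles of estrus at hour 10. The IM groups received the cyclooxygenase inhibitor indomethacin once by mouth at 4 mg/kg, at hour 16 of proestrus. The RU groups received RU486, which blocks the progesterone and glucocorticoid receptors, once by mouth at 100 mg/kg, at hour 10 of proestrus. IM PeF and RU PeF were collected with control PeF, and IM UF and RU UF, both unruptured, were collected with control PoF. At estrus the treated follicles had not ruptured and the control follicles had, so drug and rupture cannot be told apart in comparisons with control PoF. The labels report 3 animals for every treatment and time without tying samples to animals, so p-values measure only the spread between these samples. The stage label of both UF groups reads post-ovulatory while their titles read unruptured, and the titles were followed.

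Steroid synthesis begins with cholesterol, which luteal and follicular cells take from lipoproteins through the receptor encoded by Scarb1. Star protein moves cholesterol to the inner mitochondrial membrane, the step that hormones regulate most acutely. There the enzyme Cyp11a1 cleaves the side chain to give pregnenolone, with electrons that reach it from Fdxr through Fdx1. Hsd3b1 then turns pregnenolone into progesterone. In the rat the 20alpha-hydroxysteroid dehydrogenase Akr1c3 (Akr1c18) reduces progesterone to a form that the progesterone receptor binds poorly, and its rise marks the loss of function of the corpus luteum. The surge of luteinizing hormone shifts granulosa cells from making estradiol towards making progesterone, and progesterone acting through its receptor is needed for rupture.

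Values are log2 normalized signals with a pseudocount of 2.8 added before the log, and folds are on that scale, which understates changes of dim genes. The arrays differed in brightness, with median deposited signals from 4.4 in control PeF 3 to 27.4 in control PoF 3, and were quantile-normalized before testing. The granulosa markers Foxl2 and Inha and the theca marker Insl3 were above background on all 18 arrays. The adrenal markers Cyp11b1 and Cyp21a1 were above background on 0 and 1 arrays. Differences are given with their standard error (SE, n = 3 per group) and with the p of limma, adjusted over all 18155 probe sets of a comparison, and were called at an adjusted p up to 0.05. A gene with more than 1 probe set is represented by the brightest of them on average, and the other is given beside it.

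The progesterone genes did not move as a block. Star, the transfer step, and Akr1c3, the breakdown step, were higher after RU486 than in untreated follicles before rupture, Star by 1.86-fold and Akr1c3 by 3.41-fold. Cyp11a1 differed from the control by -0.12 ± 0.09 log2 units, with values set by rank for a probe set this bright. The contrast between genes was not tested. With the deposited signals neither rise was called (limma adjusted p = 0.252 for Star and 0.0509 for Akr1c3). At estrus Star was 3.86-fold higher in RU UF than in control PoF, and Akr1c3 had fallen 2.82-fold from its RU PeF level. In untreated follicles Star fell 1.87-fold from proestrus to estrus. No member was called between indomethacin-treated and untreated follicles at either time, where 0% of all genes were called at proestrus and 0.0481% at estrus.

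Of the 7 measured members, 1 was higher and 2 were lower in control PoF than in control PeF, where 24.4% of all genes were called higher and 19.7% lower. With the deposited signals, where the median gene rose by 1.38, 2 members (Hsd3b1 and Scarb1) were higher in that comparison and 0 lower. In RU PeF against control PeF 2 members were higher and 0 lower, with 3.77% of genes called higher and 4.75% lower. In RU UF against control PoF 3 were higher and 0 lower, with 4.52% and 5.45% of genes. From IM PeF to IM UF 1 was higher and 1 lower, with 19.4% and 18.4% of genes, and from RU PeF to RU UF 2 were higher and 1 lower, with 21.3% and 21.4%. In the 3 time courses from proestrus to estrus, the members were called about as often as all genes. Between the drugs, RU PeF against IM PeF had 2 members higher and 0 lower, with 2.17% and 3.85% of genes, and RU UF against IM UF had 3 higher and 0 lower, with 3.48% and 4.38%. IM PeF against control PeF had 0 members called, and 0% of all genes. In that comparison 1 member and 2074 probe sets had an unadjusted limma p under 0.05. IM UF against control PoF had 0 members called, with 0.0481% of genes called, and 0 members and 1265 probe sets had an unadjusted limma p under 0.05. The median difference of the 7 members was 0.44 in RU UF against control PoF and 0.19 in RU PeF against control PeF, beside medians over all genes of -0.036 and 0.055. These 2 comparisons use separate controls, while those of both drugs with one control share its 3 samples.

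**Figure D1:**
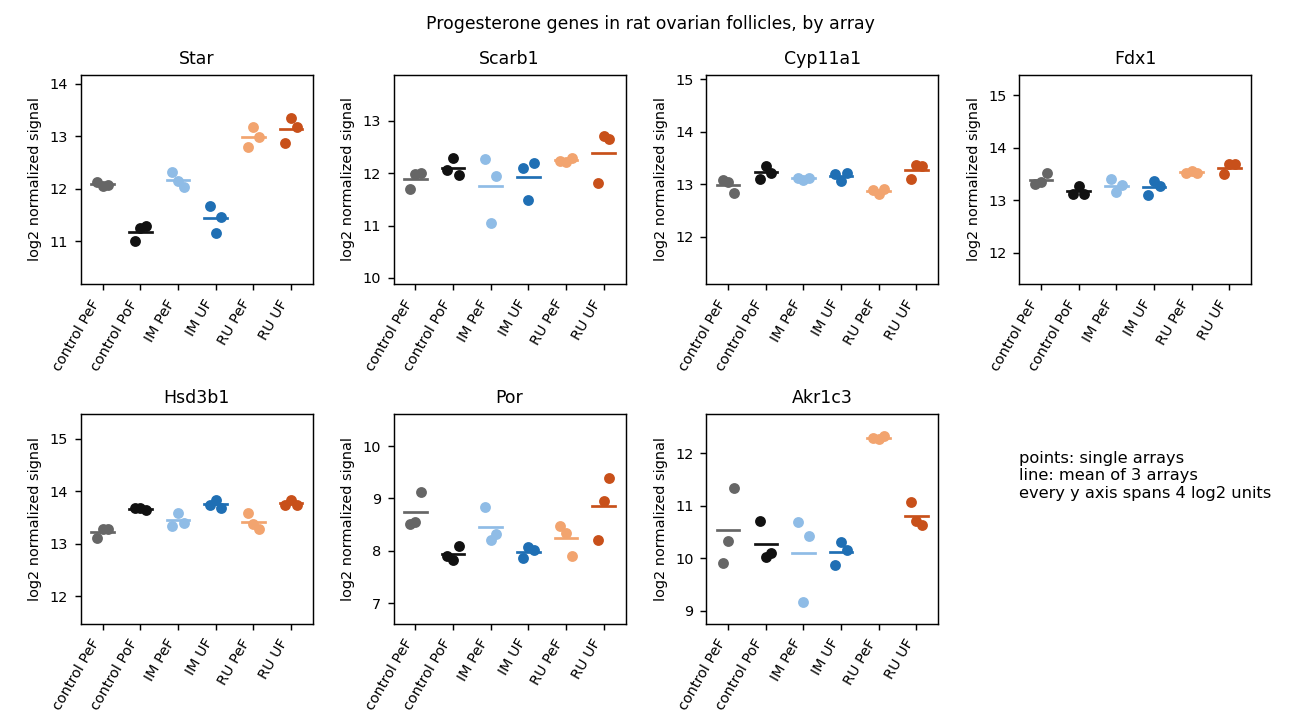
Log2 normalized signal (y axis, spanning 4 log2 units in every panel) of the 7 measured progesterone genes in each of 18 arrays, with 3 points per group and a line at the group mean. Star and Akr1c3 show the widest separations: all 3 RU PeF values of Akr1c3 lie from 12.26 to 12.33, above every other array.

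Star encodes the protein that delivers cholesterol to Cyp11a1. Its signal was 12.13, 12.06 and 12.07 in the 3 control PeF samples and 11.01, 11.26 and 11.29 in control PoF. In RU PeF it was 12.79, 13.18 and 12.99, and in RU UF 12.87, 13.35 and 13.18. The 6 RU486 samples were thus the 6 highest of all 18, and control PoF held the lowest value. IM PeF gave 12.31, 12.14 and 12.04, overlapping control PeF, and IM UF gave 11.68, 11.16 and 11.47, overlapping control PoF. In whole follicles, fewer cells of a type and less RNA per cell cannot be told apart.

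Star fell by 0.90 ± 0.14 from control PeF to control PoF (limma adjusted p = 8.05e-05) and by 0.73 ± 0.14 from IM PeF to IM UF (limma adjusted p = 0.000662). Under RU486 no fall was called on this probe set: RU UF minus RU PeF was 0.15 ± 0.14 (95% confidence interval -0.15 to 0.45, limma adjusted p = 0.443). RU PeF exceeded control PeF by 0.90 ± 0.14 (limma adjusted p = 0.000895) and IM PeF by 0.82 ± 0.14 (limma adjusted p = 0.00161). RU UF exceeded control PoF by 1.95 ± 0.14 (limma adjusted p = 5.88e-07) and IM UF by 1.70 ± 0.14 (limma adjusted p = 3.46e-06). Indomethacin gave 0.08 (interval -0.22 to 0.37) at proestrus and 0.25 (interval -0.05 to 0.55) at estrus, neither called.

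The RU486 effect on Star was larger at estrus than at proestrus by 1.05 ± 0.20 (limma adjusted p = 0.00602), a difference in which control PoF and RU UF differ in rupture as well. In that test of the change between the times 2 members were called higher and 0 lower, with 2.27% and 2.17% of genes. With median scaling the change was 0.77 and no longer called (limma adjusted p = 0.169). With the deposited signals it was -0.42, where the median gene shifted by -1.54, so that Star stood 1.12 above the median gene. With those signals the RU PeF and RU UF differences from their controls were 1.76 and 1.34 and not called (limma adjusted p = 0.252 and 0.47), and relative to the median gene they were 0.94 and 2.06. The fall from control PeF to control PoF also turned to 0.42 with the deposited signals, where the median gene rose by 1.38 and Star stood -0.96 from it.

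A second probe set of Star was brighter in RU PeF, from 12.07 to 12.17, than in any other group, and low in both control PoF, from 9.13 to 9.43, and IM UF, from 8.93 to 9.49. It showed the same direction as the first for control PoF against control PeF (-1.53, limma adjusted p = 0.000769), RU PeF against control PeF (1.35, limma adjusted p = 0.0124) and RU UF against control PoF (2.06, limma adjusted p = 0.000339). The 2 probe sets disagreed on the RU486 time course, where the second fell by 0.83 ± 0.31 (limma adjusted p = 0.041). It also did not call the change of the RU486 effect between times (0.71 ± 0.44, limma adjusted p = 0.405).

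Theca markers moved with Star in some comparisons. The summed log2 level of 5 listed theca genes (Cyp17a1, Insl3, Gli1, Nr2f2 and Aldh1a1, without Star) ran from 11.95 to 12.21 over control PeF and from 10.70 to 10.83 over control PoF. The IM PeF sums ran from 11.82 to 12.13 and the IM UF sums from 10.47 to 11.18, with 11.32 to 11.78 for RU PeF and 11.42 to 11.99 for RU UF. Of 4 theca genes tested, 3 fell from control PeF to control PoF, where 19.7% of all genes fell. In RU UF against control PoF 2 were higher and 1 lower, beside 4.52% and 5.45% of all genes. The theca sum thus went down with Star in untreated and IM follicles and was up with Star in RU UF, and its part in these results was not tested. In RU PeF the theca sum lay below that of control PeF while Star lay above it.

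**Figure D2:**
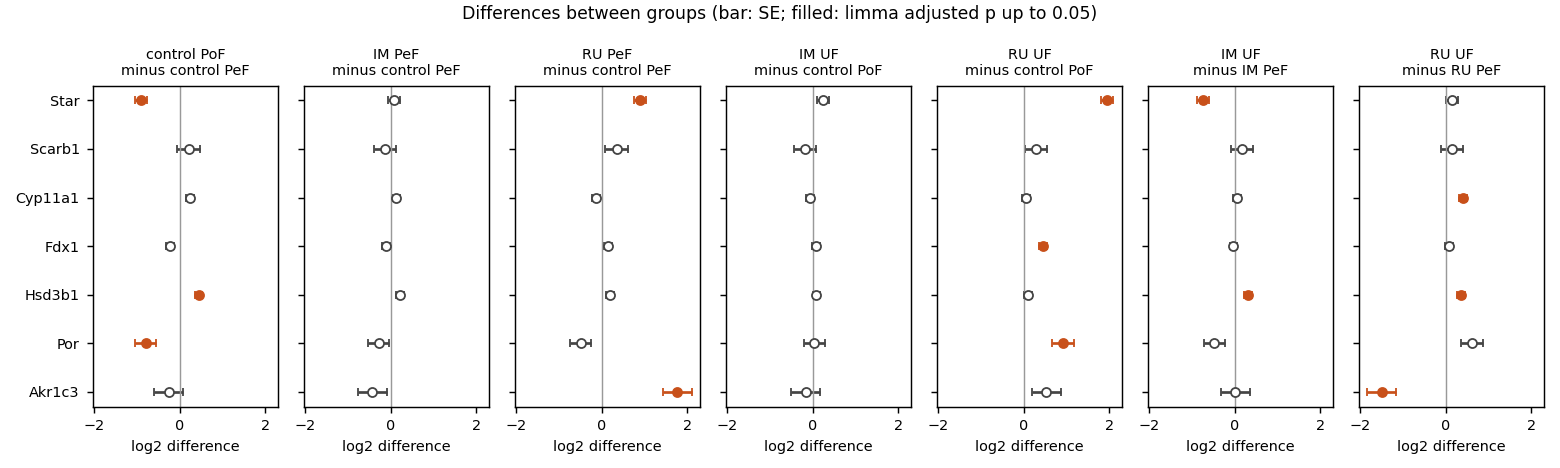
Log2 difference (x axis) of each measured progesterone gene in 7 comparisons, with bars for the SE and filled points where the limma adjusted p is up to 0.05. Star reads -0.90 in control PoF against control PeF, 0.90 in RU PeF and 1.95 in RU UF against their controls, while all points of both IM against control panels are open.

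Akr1c3 encodes the enzyme that inactivates progesterone. Its signal was 9.91, 10.33 and 11.33 in control PeF, where the highest value belongs to the dimmest array, and 10.71, 10.03 and 10.09 in control PoF. In RU PeF it was 12.29, 12.26 and 12.33, and in RU UF 11.06, 10.72 and 10.62. IM PeF gave 10.70, 9.16 and 10.42, and IM UF gave 9.87, 10.31 and 10.15. The 3 RU PeF samples stood apart from all 15 others, with no overlap, and their own spread (SD 0.0372) was the smallest of the 6 groups.

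Akr1c3 was 3.41-fold higher in RU PeF than in control PeF (1.77 ± 0.34, limma adjusted p = 0.00387) and 4.60-fold higher than in IM PeF (2.20 ± 0.34, limma adjusted p = 0.000568). It then fell by 1.49 ± 0.34 from RU PeF to RU UF (limma adjusted p = 0.00187). No time course was called in untreated follicles (-0.25, interval -0.96 to 0.46) or under indomethacin (0.02, interval -0.69 to 0.73). RU UF differed from control PoF by 0.52 (interval -0.19 to 1.23, limma adjusted p = 0.42). Without the 3 dimmest arrays that difference was called (limma adjusted p = 0.043). With the deposited signals the rise in RU PeF was 2.75 and just missed the threshold (limma adjusted p = 0.0509), and the fall from RU PeF to RU UF was -1.77 (limma adjusted p = 0.12).

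The RU486 effect on Akr1c3 changed between the times by -1.24 ± 0.48, which was not called (limma adjusted p = 0.162). Without control PeF 3, the dimmest array, it was -1.65 and called (limma adjusted p = 0.0303), and leaving out each array in turn gave -1.65 to -0.94. It was also called without the 3 dimmest arrays (-1.65, limma adjusted p = 0.00101) and with array quality weights (-1.45, limma adjusted p = 0.00158). Smooth muscle markers were lower in RU PeF, where the summed log2 level of 9 genes was 8.22 to 8.51, than in control PeF, where it was 9.39 to 9.75. Of these 9 genes 4 were called lower and 0 higher in RU PeF, beside 4.75% and 3.77% of all genes. The sum was higher at estrus in every time course: it was 10.11 to 10.41 in control PoF, went from 8.92 to 9.22 in IM PeF up to 10.42 to 10.67 in IM UF, and was 9.49 to 9.77 in RU UF. In these time courses 6, 7 and 6 of the 9 genes were called higher and 1, 0 and 1 lower, for untreated, IM and RU follicles in turn. Of all genes 24.4%, 19.4% and 21.3% were called higher and 19.7%, 18.4% and 21.4% lower. The part of these markers in the Star, Akr1c3, Cyp11a1 and Hsd3b1 results of the same comparisons was not tested.

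Akr1c3 belongs to a family of closely related reductases. The probe sequences were not used here, so whether relatives add to its signal was not tested. Akr1c14, the 3alpha-hydroxysteroid dehydrogenase, averaged 9.11 ± 0.782 (SD, n = 3) over control PeF and 7.35 ± 0.174 over control PoF. Its RU PeF mean was 10.19 ± 0.221 and its RU UF mean 6.02 ± 0.351. It fell by 1.77 ± 0.39 from control PeF to control PoF and dropped by 4.17 ± 0.39 from RU PeF to RU UF (limma adjusted p = 0.00175 and 3.4e-07). In RU PeF it differed from control PeF by 1.07 ± 0.39 and was not called (limma adjusted p = 0.104). Akr1c14 and Akr1c3 thus went down together under RU486, but in untreated follicles the fall was called for Akr1c14 and not for Akr1c3, a contrast that was not itself tested.

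RefSeq promoter sequence (build GRCr8) was at hand for 5 of the 7 measured members, and not for Star and Scarb1. Shown are the 250 bases before the start of Akr1c3, the member with the largest called rise after RU486 at proestrus, and of Cyp11a1, the side-chain enzyme that was not called there. Capitals mark matches on either strand to the searched motifs. The searched motifs were AAGGTCA for NR5A factors, AGATAA or else TGATAA for the GATA-binding zinc-finger factors, TGACG as the core of the cyclic AMP response element, TGANTCA for AP-1, GGGCGG for Sp1 and TGTTCT for the progesterone and glucocorticoid receptors. No motif's match overlapped another's in either window.
Akr1c3, chr17:71020634-71020883, plus strand: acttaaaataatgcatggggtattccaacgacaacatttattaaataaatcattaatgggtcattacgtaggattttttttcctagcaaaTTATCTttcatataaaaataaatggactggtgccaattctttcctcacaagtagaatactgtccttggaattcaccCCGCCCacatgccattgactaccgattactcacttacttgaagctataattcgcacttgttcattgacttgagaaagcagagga
Cyp11a1, chr8:67318415-67318664, plus strand: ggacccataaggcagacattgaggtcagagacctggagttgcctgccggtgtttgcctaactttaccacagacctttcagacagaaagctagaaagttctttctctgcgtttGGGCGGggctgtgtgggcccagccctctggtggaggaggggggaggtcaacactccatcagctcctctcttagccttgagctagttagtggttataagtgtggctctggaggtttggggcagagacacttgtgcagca
The Akr1c3 window held 1 AGATAA on the minus strand 160 bases before the start and 1 GGGCGG on the minus strand at 84 bases. The Cyp11a1 window held 1 GGGCGG on the plus strand at 138 bases. Among 33469 RefSeq promoter windows of 250 bases, 10.3% held AGATAA, 30.5% GGGCGG, 17.5% TGTTCT, 3.99% AAGGTCA, 7.97% TGATAA, 18.2% TGACG and 6.34% TGANTCA. A match describes letters only and is no measured binding site.

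Cyp11a1 makes pregnenolone in the first enzymatic step of the pathway. Its signal was 13.09, 13.05 and 12.84 in control PeF and 13.11, 13.35 and 13.22 in control PoF. In RU PeF it was 12.89, 12.81 and 12.91, and in RU UF 13.11, 13.38 and 13.35. IM PeF lay between 13.09 and 13.13, and IM UF between 13.07 and 13.22. After quantile normalization all 18 values fell within a narrow band. The RU486 time course was the one comparison called, with a rise of 0.41 ± 0.09 (1.33-fold, limma adjusted p = 0.00193).

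That rise of Cyp11a1 stayed called without each array in turn (0.36 to 0.49), but with median scaling it was 0.33 and not called (limma adjusted p = 0.174). In untreated follicles Cyp11a1 differed by 0.23 ± 0.09 between the times (limma adjusted p = 0.0526), just short of the threshold. That difference was called with a stricter filter (limma adjusted p = 0.0462), with array quality weights (0.0206), without control PeF 1 (0.0333) and without control PoF 1 (0.0358), and was 0.04 with median scaling (0.893). Against the controls, RU486 gave -0.12 (interval -0.32 to 0.07) at proestrus and 0.05 (interval -0.14 to 0.25) at estrus. The corresponding intervals for indomethacin were -0.07 to 0.32 and -0.26 to 0.13. Each of these 4 intervals lies within 0.32 log2 units of 0. They rest on quantile-normalized values, which are set by rank for a probe set this bright, so they do not establish equal levels. With median scaling RU486 gave 0.011 at proestrus and 0.302 at estrus, and indomethacin 0.144 and 0.275, none of them called.

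Fdx1 is the ferredoxin that hands electrons to Cyp11a1. Its signal was 13.31, 13.35 and 13.52 in control PeF and 13.13, 13.27 and 13.13 in control PoF. RU PeF gave 13.52, 13.56 and 13.52, and RU UF gave 13.49, 13.69 and 13.69. IM PeF ranged from 13.16 to 13.40 and IM UF from 13.11 to 13.38. All RU UF values lay above all control PoF and all IM UF values. Fdx1 was 1.36-fold higher in RU UF than in control PoF (0.44 ± 0.09, limma adjusted p = 0.00515). Control PoF minus control PeF was -0.21 ± 0.09 and not called (limma adjusted p = 0.0715). With array quality weights that difference was -0.16 and called (limma adjusted p = 0.0395).

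Against IM UF the Fdx1 difference was 0.37 ± 0.09 (limma adjusted p = 0.0203), and 4 of 6 fits that each left out 1 array lost that call. These were the fits without IM UF 1, IM UF 3, RU UF 2 or RU UF 3, in which the limma adjusted p ran from 0.0568 to 0.098. The second Fdx1 probe set, of lower signal (7.54 to 9.76 over all arrays), gave 0.84 ± 0.41 in RU UF against control PoF and was not called (limma adjusted p = 0.249). With median scaling the first probe set gave 0.67 against control PoF and 0.25 against IM UF, and neither was called (limma adjusted p = 0.214 and 0.749). With the deposited signals it gave 0.066 against control PoF and was not called (limma adjusted p = 0.937), or 0.784 relative to the median gene.

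Hsd3b1 completes progesterone synthesis. Its signal was 13.11, 13.29 and 13.29 in control PeF and 13.69, 13.69 and 13.64 in control PoF. IM PeF gave 13.35, 13.59 and 13.40, and IM UF gave 13.74, 13.84 and 13.69. RU PeF gave 13.59, 13.38 and 13.29, and RU UF gave 13.74, 13.84 and 13.74. In untreated, IM and RU follicles alike, every estrus value exceeded every proestrus value.

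The estrus-minus-proestrus difference of Hsd3b1 was 0.44 ± 0.09 in untreated follicles, 0.31 ± 0.09 under indomethacin and 0.36 ± 0.09 under RU486 (limma adjusted p = 0.000878, 0.0129 and 0.00422). The change of the drug effect between times was -0.13 (interval -0.40 to 0.14) for indomethacin and -0.08 (interval -0.35 to 0.18) for RU486. With median scaling the untreated rise was 0.08 (limma adjusted p = 0.861) and, relative to the median gene, Hsd3b1 stood at -0.25. The indomethacin and RU486 rises were 0.47 and 0.32 with median scaling and were not called either (limma adjusted p = 0.261 and 0.43). The indomethacin call was lost without IM PeF 1, without IM PeF 3 or without IM UF 2.

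The signals of Hsd3b1, Fdx1 and Cyp11a1 sat at the top of every array. Hsd3b1 ranked from 2 to 25 among 31042 probe sets, Fdx1 from 4 to 25 and Cyp11a1 from 13 to 45, and Hsd3b1 reached 90.5% of an array's brightest signal. Quantile normalization gives such probe sets a value set by rank, in steps, and a ceiling on their signal was not tested. Star ranked from 14 to 384 and Akr1c3 from 94 to 1841.

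Scarb1 encodes the receptor through which rat ovarian cells take up cholesterol esters from high-density lipoprotein. Its signal was 11.70, 11.99 and 11.995 in control PeF and 12.07, 12.28 and 11.96 in control PoF. RU PeF gave 12.23, 12.21 and 12.29, and RU UF gave 11.82, 12.70 and 12.64. IM PeF ran from 11.06 to 12.27 and IM UF from 11.49 to 12.18, with the lowest value of each on one of the 3 dimmest arrays. No comparison was called, although with the deposited signals Scarb1 was 1.49 higher in control PoF than in control PeF (limma adjusted p = 0.0462), or 0.11 relative to the median gene. RU PeF minus control PeF was 0.35 (interval -0.20 to 0.90) and RU UF minus control PoF 0.28 (interval -0.26 to 0.83).

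The second Scarb1 probe set varied more, from 6.89 to 10.15 over the 18 arrays. It rose by 1.83 ± 0.63 from control PeF, where it was 7.19, 8.64 and 6.89, to control PoF, where it was 9.16, 9.76 and 9.31 (limma adjusted p = 0.0268). The first probe set gave 0.21 ± 0.26 for the same comparison (limma adjusted p = 0.549). The probe sets therefore differ on whether Scarb1 changed in untreated follicles. In RU PeF against control PeF the second gave 1.89 ± 0.63 (interval 0.58 to 3.21), without overlap of the groups. That difference was not called (limma adjusted p = 0.0737). For RU UF against control PoF it gave 0.058 (interval -1.26 to 1.37).

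Por is the reductase that supplies electrons to the microsomal cytochromes P450, among them Cyp17a1 and Cyp19a1. Its signal was 8.52, 8.55 and 9.13 in control PeF and 7.90, 7.84 and 8.09 in control PoF. RU PeF gave 8.48, 8.35 and 7.90, and RU UF gave 8.22, 8.96 and 9.39. IM PeF ran from 8.22 to 8.83 and IM UF from 7.86 to 8.07. Control PoF and IM UF were the low groups, and RU UF was spread widely.

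Por fell by 0.79 ± 0.25 from control PeF to control PoF (limma adjusted p = 0.0173). Without control PeF 3, the dimmest array, the difference was -0.59 (limma adjusted p = 0.0861), and without control PoF 2 it was -0.74 (limma adjusted p = 0.0576). RU UF exceeded control PoF by 0.91 ± 0.25 (limma adjusted p = 0.0282) and IM UF by 0.87 ± 0.25 (limma adjusted p = 0.0412), and each of these calls stood in 1 of 6 fits that left out 1 array. The array whose removal kept both calls was RU UF 1, the lowest of its group. With median scaling these 3 differences were -0.44, 0.78 and 0.79, and none was called (limma adjusted p = 0.256, 0.153 and 0.166).

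The RU486 effect on Por rose from proestrus to estrus by 1.40 ± 0.35 (limma adjusted p = 0.0314), and 4 of 12 fits without 1 array kept that call. The 8 that lost it left out control PeF 3, any of control PoF 1 to 3, RU PeF 2, RU PeF 3, RU UF 2 or RU UF 3, with values from 1.14 to 1.48. With median scaling the change was 0.93 and not called (limma adjusted p = 0.21). The second Por probe set, which lay at or below the array's median signal on 6 of 18 arrays, called none of these and gave 0.16 for control PoF against control PeF and -0.0479 for the change of the RU486 effect.

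In the deposited signals, a brightness factor shared by all probe sets of an array nearly cancels in the log2 difference between 2 of them. Dim arrays were not lower by such a shared factor. In IM UF 2, one of the 3 dimmest arrays, Hsd3b1 was 12511 and Star 944, beside 13591 and 4051 in IM UF 1. Array brightness can therefore still enter these differences. Star minus Cyp11a1 had a mean of -1.07 in control PeF, -1.83 in control PoF, 0.094 in RU PeF and -0.185 in RU UF. In IM PeF it was -0.989 and in IM UF -1.85. Relative to Cyp11a1, Star was thus highest in the RU486 groups and lowest in control PoF and IM UF. Akr1c3 minus Cyp11a1 averaged -2.71 over control PeF, -2.72 over control PoF, -3.09 over IM PeF and -3.17 over IM UF. Its mean was -0.559 over RU PeF and -2.61 over RU UF. The 3 RU PeF samples lay between -0.600 and -0.516, and the next highest sample of any group was RU UF 1 at -2.25.

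**Figure D3:**
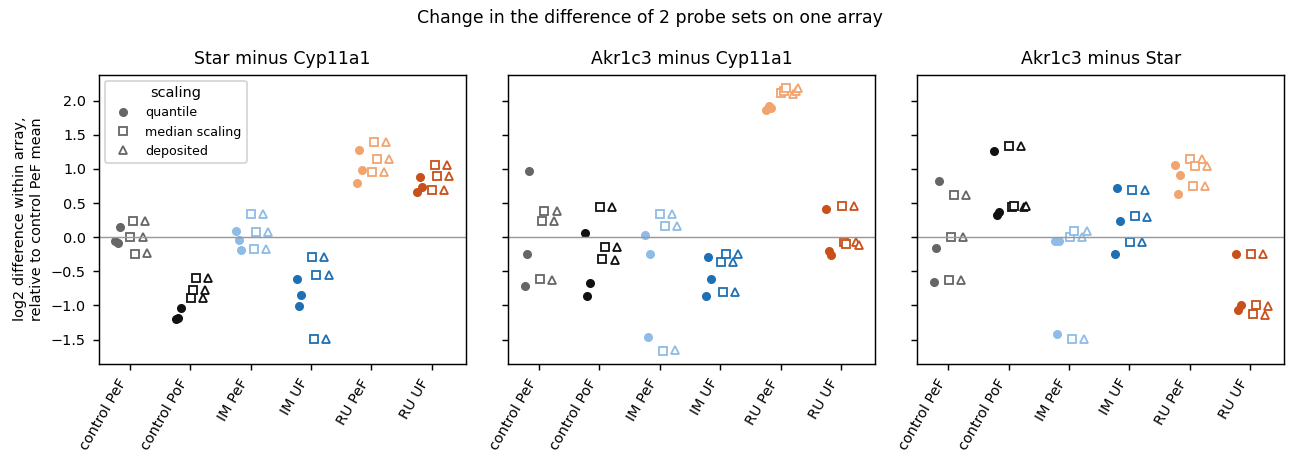
Difference of 2 probe sets on the same array in log2 units (y axis), set to 0 at the control PeF mean, for 3 pairs of genes and 3 scalings, with 1 point per array. Akr1c3 minus Cyp11a1 stands apart in RU PeF under each scaling, and Akr1c3 minus Star is lower in RU UF (mean -2.43 in the deposited signals before the control mean is subtracted) than in RU PeF (-0.654).

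Median scaling moved none of these group means by more than 0.002, while quantile normalization shifted the dim arrays. In control PeF 3, Akr1c3 minus Cyp11a1 was -1.50 after quantile normalization and -2.32 in the deposited signals, and in IM UF 2 Star minus Cyp11a1 was -1.92 and -2.56. The step of Akr1c3 minus Cyp11a1 from control PeF to control PoF, from -2.47 to -2.95 after quantile normalization, did not appear in the deposited means given above. Akr1c3 minus Star was -1.64 ± 0.624 (SD, n = 3) in control PeF and -0.654 ± 0.206 in RU PeF, and -0.888 ± 0.513 in control PoF and -2.43 ± 0.478 in RU UF. In the deposited signals RU486 samples did not overlap their controls at either time, lying above them at proestrus and below them at estrus, but after quantile normalization control PeF 3 (-0.740) lay among the RU PeF samples. The within-array differences were not tested.

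Around the members, 62 other genes of the pathway were listed by role and 48 of them were tested. Median scaling kept the direction of every one of their calls named here. With the deposited signals 3 of 29 calls changed sign in control PoF against control PeF and 3 of 13 in RU UF against control PoF. So did 1 of 8 in RU PeF against control PeF and 1 of 7 for the change of the RU486 effect. Relative to the median gene every call kept its direction with those signals. In control PoF against control PeF 18 of the 48 were higher and 11 lower, beside 24.4% and 19.7% of all genes. With the deposited signals 23 of the 48 were higher and 5 lower. Among 13 genes of cholesterol supply and mitochondrial transfer 6 were higher and 0 lower, including the channel Vdac1 (1.27 ± 0.19, limma adjusted p = 4.71e-05), the mitochondrial protease Lonp1 (0.92 ± 0.16, limma adjusted p = 0.000197) and the cholesterol-binding protein Tspo (1.33 ± 0.24, limma adjusted p = 0.000307). Star thus fell while these neighbours in the transfer step rose. Among 9 later steroid enzymes 3 rose and 4 fell. The falls included the estrogen sulfotransferase Sult1e1 (-5.63 ± 0.49, limma adjusted p = 1.85e-07), aromatase Cyp19a1 (-4.53 ± 0.49, limma adjusted p = 1.98e-06) and the 17alpha-hydroxylase Cyp17a1 (limma adjusted p = 1.9e-05). Cyp17a1 was above background on 1 of 3 control PoF arrays, so its fall is given as at least 11.9-fold, with the dim arrays raised to the brightest unspiked control probe set. Of 22 regulators 8 rose and 5 fell. The nuclear receptors Nr5a1 (2.63 ± 0.28, limma adjusted p = 1.39e-06) and Nr5a2 (2.08 ± 0.34, limma adjusted p = 0.000135), which drive steroid enzyme genes, were among those that rose. The progesterone receptor Pgr was above background on 3 of 3 control PeF arrays and 0 of 3 control PoF arrays, and was at least 16-fold lower in control PoF by the same bound (limma adjusted p = 7.24e-05).

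RU PeF differed from control PeF in 8 of the 48 genes, 4 higher and 4 lower, beside 3.77% and 4.75% of all genes. Tspo fell by 1.06 ± 0.24 (limma adjusted p = 0.0116) and the cholesterol carrier Stard3 rose by 0.56 ± 0.15 (limma adjusted p = 0.0303), so transfer genes moved both ways in the group where Star was high. Cyb5a, the cytochrome b5 that aids Cyp17a1, was lower by 0.98 (limma adjusted p = 0.014). Among regulators Nr5a2 was 9.54 ± 0.328 (SD, n = 3) in control PeF and 7.56 ± 0.630 in RU PeF (-1.98 ± 0.34, SE, limma adjusted p = 0.0019). The prolactin receptor Prlr was also lower (-0.87 ± 0.15, limma adjusted p = 0.00212), while Gata4 (1.02 ± 0.22, limma adjusted p = 0.00775) and Stat5b (1.89 ± 0.43, limma adjusted p = 0.0123), a mediator of prolactin signals, were higher. Stat5b was above background on 2 of 3 control PeF arrays. None of the 4 other reductases and dehydrogenases tested was called in RU PeF, where Akr1c3 rose. Median scaling kept 3 of these 8 calls and the deposited signals 0.

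RU UF differed from control PoF in 13 of the 48 genes, with 12 higher and 1 lower, beside 4.52% and 5.45% of all genes. The median difference over all 48 was 0.27, beside -0.036 for all genes. Stard4, a carrier of cholesterol between membranes, was 6.92 ± 0.329 (SD, n = 3) in control PoF, 7.24 ± 0.5 in IM UF and 9.05 ± 0.132 in RU UF (2.14 ± 0.27, SE, limma adjusted p = 8.21e-05). Hsd17b7, which acts in both estradiol and cholesterol synthesis, was 8.27 ± 0.356 in control PoF, 9.38 ± 0.201 in IM UF and 11.05 ± 0.114 in RU UF (2.78 ± 0.27, SE, limma adjusted p = 8.48e-06). Both genes had their highest mean in RU UF, as Star had on its brighter probe set. The second probe set of Star was highest in RU PeF (mean 12.12), with 11.29 in RU UF. Cyp19a1 (3.42 ± 0.49, limma adjusted p = 0.000244) and Cyp17a1 (at least 2.89-fold, limma adjusted p = 0.0192) were also higher, but both had fallen from RU PeF to RU UF, by 1.73 ± 0.49 and 1.80 ± 0.59 (limma adjusted p = 0.0098 and 0.0226). Srebf2, which switches on cholesterol synthesis genes (0.90 ± 0.13, limma adjusted p = 0.00035), Prlr (0.97 ± 0.15, limma adjusted p = 0.000489) and the receptor of luteinizing hormone Lhcgr (2.55 ± 0.64, limma adjusted p = 0.0186) were higher among 6 regulators. The 1 gene lower was Akr1c14 (-1.33 ± 0.39, limma adjusted p = 0.0426). Median scaling kept 8 of the 13 calls and the deposited signals 1.

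**Figure D4:**
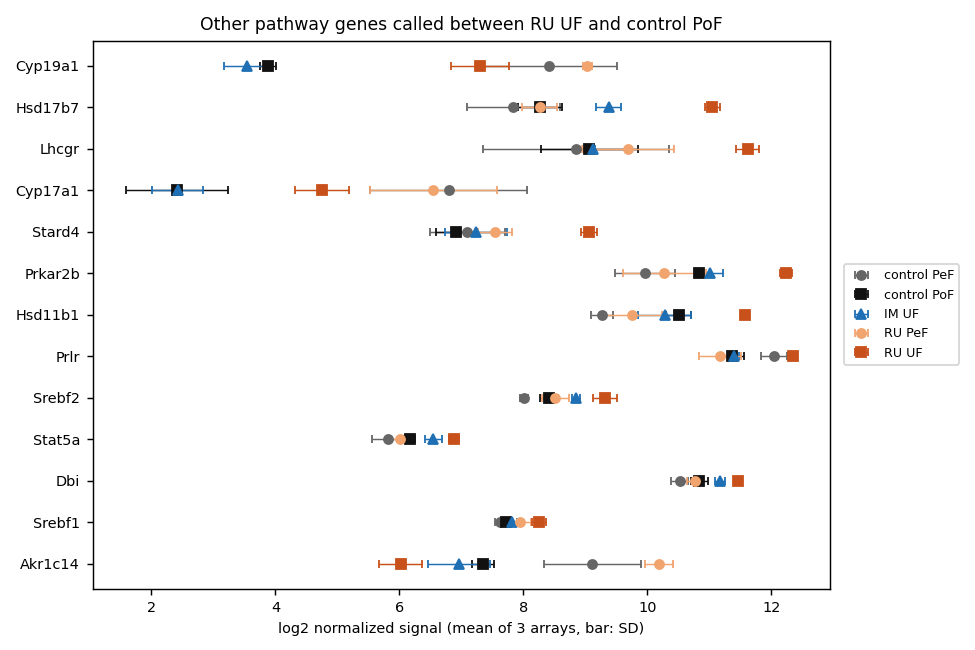
Log2 normalized signal (x axis, mean of 3 arrays with SD bars) of the 13 other pathway genes called between RU UF and control PoF, in 5 groups. Hsd17b7 stands at 11.05 in RU UF and 8.27 in control PoF, and Akr1c14 is the one gene whose RU UF mean, 6.02, lies below that of control PoF, 7.35. Cyp17a1 was above background on 1 of 3 control PoF and 0 of 3 IM UF arrays, so those means hold arrays at background.

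The summed level of the listed luteal markers was highest in RU UF. Their summed log2 level over 6 genes, without Akr1c3, was 14.03 to 14.18 in RU UF and between 12.78 and 13.22 in every other group. Of 6 genes tested 4 were higher and 0 lower in RU UF than in control PoF, beside 4.52% and 5.45% of all genes. Lhcgr, Prlr and Hsd11b1 are on both this list and the pathway list. The part of these markers in the higher Star and Fdx1 of RU UF was not tested.

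After indomethacin none of the 48 genes was called against control PeF or control PoF, where 0% and 0.0481% of all genes were called. From IM PeF to IM UF 17 rose and 10 fell, led by Sult1e1 (-5.14 ± 0.49, limma adjusted p = 5.34e-07) and Cyp19a1 (-4.39 ± 0.49, limma adjusted p = 3.02e-06). Of all genes 19.4% rose and 18.4% fell there. From RU PeF to RU UF 20 rose and 11 fell, beside 21.3% and 21.4% of all genes. Median scaling kept 19 of the 27 IM calls and 26 of the 31 RU calls, and the deposited signals 5 and 7. Tspo rose in each of these time courses, by 1.07 ± 0.24 and 2.37 ± 0.24 (limma adjusted p = 0.00216 and 6.96e-07). Directly between the drugs, 10 of the 48 were higher and 0 lower in RU UF than in IM UF, beside 3.48% and 4.38% of all genes. Cyp19a1 (3.76 ± 0.49, limma adjusted p = 0.000172) and Stard4 (1.82 ± 0.27, limma adjusted p = 0.000569) were among the 10. Cyp19a1 was above background on 2 of 3 IM UF arrays. Median scaling kept 7 of the 10 calls between RU UF and IM UF, and the deposited signals 1. At proestrus 5 were higher and 4 lower in RU PeF than in IM PeF, beside 2.17% and 3.85% of all genes. Median scaling kept 7 of these 9 calls and the deposited signals 1. The change of the RU486 effect between times was called for 7 of the 48, higher for Prlr (1.84 ± 0.22, limma adjusted p = 0.000266), Hsd17b7 (2.35 ± 0.39, limma adjusted p = 0.00202), Cyp19a1, Stard4 and Cebpb and lower for Akr1c14 (-2.40 ± 0.56, limma adjusted p = 0.021) and Gata4. Of all genes 2.27% were called higher and 2.17% lower for that change. Median scaling kept 4 of the 7 calls and the deposited signals 1. The change of the indomethacin effect was called for 0 of the 48, 0 members and 0% of all genes, and 0 members and 1641 probe sets had an unadjusted limma p under 0.05.

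The genes most like Star over the 18 samples were Cry2 (Pearson r = 0.930), Tpbg (0.910), Ubqln4 (0.894), Bmp1 (0.891) and Kmt2d (0.891). With the group means removed, r with Star was 0.658 for Cry2 and from 0.124 to 0.369 for the other 4. The likeness of those 4 therefore lies mostly between groups. For Akr1c3 the nearest genes were Tes (0.913), Pbrm1 (0.910), Me2 (0.896), Ttc3 (0.884) and Uhrf2 (0.882), and with group means removed r was 0.865 for Tes and 0.850 for Pbrm1. For Cyp11a1 they were Mdh1 (0.918), Bst2 (0.908), Ddt (0.904), Hspa4 (0.881) and Psap (0.880). With group means removed r with Cyp11a1 ran from 0.627 for Ddt to 0.795 for Hspa4, so that likeness was also present between arrays of a group. These values were picked as the largest over all tested single-symbol probe sets of other genes. They share arrays, normalization and groups, so they are a description without a test.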

How the data were processed

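The deposited values are intensity on a linear scale, never below 1, which is called the floor here. The submitters' processing notes name MAS5 without a version, and no scaling target or genome build is given in the sources used here. The authors' signals were not brought to a common level between arrays, and 7.06% to 25.1% of an array's probe sets stood at the floor. Precision is limited by the number of arrays.

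Signals of 31042 probe sets, without the 57 control probe sets, were quantile-normalized with limma 3.58.1 in R 4.3.3, and log2 was taken after adding 2.8, the 20th percentile. A probe set was tested if it exceeded the median of its array in 3 or more of the 18 samples. The limma model had 1 mean per group over all 18 arrays, 12 residual degrees of freedom and a trended variance, and p-values were adjusted by Benjamini-Hochberg in each of 11 comparisons. With 3 samples on each side, the smallest two-sided p of an exact permutation test is 0.1, so limma alone was used. The code of the fit was run on simulated data with independent normal noise and a shift in RU PeF alone. That simulation held no differences in array brightness and no normalization, so it does not bear on how scaling changes the calls. Background was the brightest of 27 unspiked control probe sets of each array. The annotation gave 1 gene symbol to 20832 probe sets, several to 436 and none to 9780. Figures used matplotlib 3.10.9 in Python 3.11.15.

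The members, the pathway list and the marker lists were chosen with earlier results of these data known, so none of them is independent support. All measured members were named, with up to 4 pathway genes per role and comparison by smallest adjusted p, and the 5 genes most like Star, Cyp11a1 and Akr1c3. Alternatives tried were the deposited signals, median scaling, 2 pseudocounts, 2 filters, the compared groups alone, a replicate block, array weights, leaving out the 3 dimmest arrays or each array in turn, and other probe sets.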

Additional observations from a re-analysis of the deposited data

Results flagged for a closer look

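The RU486 effect on Star differed between the times: RU UF minus control PoF exceeded RU PeF minus control PeF by 1.05 log2 units (limma adjusted p = 0.00602). The same difference for Por was 1.40 log2 units (limma adjusted p = 0.0314). In both cases the estrus control had ruptured and the treated follicles had not, so a change with time and the missing rupture cannot be told apart. The second probe set of each gene was not called for this difference, at 0.71 for Star and -0.0479 for Por.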

How the results depend on the processing

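Of the single-gene values recomputed under an alternative, 1270 stayed on their side of the threshold with their direction where called, 63 lost their call, 19 gained one and 8 changed sign where at least 1 of the fits compared called them. A change of sign between differences that neither fit called was not counted. The cause of each change was not tested, apart from the smaller number of arrays when some were left out. With the deposited signals 0 members were called in RU PeF against control PeF, RU UF against control PoF, IM UF against IM PeF, RU UF against RU PeF, RU PeF against IM PeF, RU UF against IM UF and the change of the RU486 effect, and in control PoF against control PeF 2 were higher and 0 lower, in place of 1 and 2. With median scaling 1 member was called in control PoF against control PeF, RU UF against control PoF, IM UF against IM PeF, RU UF against RU PeF and RU UF against IM UF, and 0 for the change of the RU486 effect. Array weights gave 5 members in control PoF against control PeF and 4 in RU PeF against IM PeF. Without a filter 1 member was called in RU UF against IM UF, and with the compared groups alone 1 for the change of the RU486 effect. Leaving out 1 array gave 1 to 2 members in IM UF against IM PeF, 1 to 3 in RU UF against IM UF and 1 to 2 for the change of the RU486 effect. Values that reversed with the deposited signals were those of Star (0.42) and Por (0.68) in control PoF against control PeF, and of Star (-0.42) and Por (-0.25) for the change of the RU486 effect. Without the 3 dimmest arrays Akr1c3 fell from IM PeF to IM UF (-0.55, limma adjusted p = 0.0437). Other probe sets reversed Por (0.16) in control PoF against control PeF, Star (-0.83) in RU UF against RU PeF and Por (-0.0479) for the change of the RU486 effect.

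No pairing by replicate number was seen: over 45 same-numbered pairs the correlation of deviations ran from -0.304 to 0.118, and 0 of 18 samples correlated best with their own number. Groups held 3 samples and arrays differed in quality, so these values cannot tell whether samples shared animals or days. With the replicate block Por in RU UF against IM UF was 0.87 and lost its call (limma adjusted p = 0.056), which left 2 members called there, and the block ended no other call of a member.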
